A study of Mus musculus with 12 samples.

Results

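Clustered protocadherins are cell surface adhesion proteins encoded by the Pcdha, Pcdhb and Pcdhg gene clusters, which lie one after another on mouse chromosome 18. Members were taken by symbol, as every gene of the deposited tables named Pcdha, Pcdhb, Pcdhga, Pcdhgb or Pcdhgc followed by a member number. The Pcdha symbols ending in c1 and c2 were included. This gave 59 of 23412 genes, with 15 in Pcdha, 22 in Pcdhb and 22 in Pcdhg. The Pcdhg genes comprised 12 A-type members (Pcdhga), 7 B-type members (Pcdhgb) and 3 C-type members (Pcdhgc). In GENCODE M21 on GRCm38, the same assembly as mm10, all 3 clusters were on the plus strand. Pcdha spanned chr18:36930184-37187661, Pcdhb spanned chr18:37264938-37524479 and Pcdhg spanned chr18:37661793-37841873.

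The study measured poly(A) RNA by bulk sequencing in mouse embryonic stem cells (mESCs) that lacked HMGN1, HMGN2 or both, which are proteins that bind nucleosomes. It used the male mESC line v6.5, grown with LIF and serum on gelatin, and harvested RNA after 48 h. The 4 genotypes were wild type (WT), Hmgn1-/-, Hmgn2-/- and Hmgn1-/-Hmgn2-/-, each 1 line with 3 libraries from biological triplicates collected from 6-well plates. WT was the parental v6.5 line. The Hmgn1 allele carried a 1 bp deletion in exon 3, the Hmgn2 allele carried a 1 bp insertion in exon 4, and the double knockout was made from the Hmgn2-/- line and carried both. Each knockout was 1 line grown from a single sorted cell, so the effects of genotype and of clone cannot be told apart.

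In the Pcdha and Pcdhg clusters each variable exon has a promoter of its own, and its transcript is spliced to constant exons that all members of the cluster share. Pcdhb members are single-exon genes with no shared exon. In neurons, single cells choose different combinations of members, through CTCF and cohesin looping and DNA methylation at the promoters, and the proteins then bind like members on other cells. C-type members are regulated differently from the other variable exons.

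The 12 libraries held 17337908 to 31448468 counts, the lowest being Hmgn2-/- replicate 3 and the highest WT replicate 1. Hmgn2-/- replicate 3 also stood apart from its replicates, with a chi-square per degree of freedom over all genes with enough counts of 37.3 and 21.1 against replicates 1 and 2, where the other pairs of replicates gave 3.44 to 12.3. Between 16311 and 17295 genes had at least 1 count in a library. Levels are given as CPM, a gene's count divided by the library's total and multiplied by 1000000. A count of 0 allows up to 3 counts, which was 0.0954 to 0.173 CPM depending on the library, for counting error only. Clustered protocadherins took 518 to 1191 counts per library, so the precision of single members was limited by low counts. Between 28 and 37 of the 59 genes had at least 1 count in a library, and 6 had none in any library. Those 6 were Pcdha3, Pcdha4, Pcdha4-g, Pcdhb5, Pcdhb9 and Pcdhb15, named after their values were seen.

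The counter, its annotation and its strand setting were not given in the sources used here. In GENCODE M21, 33.2 to 72.2% of the exonic bases of Pcdhg members belonged to no other clustered protocadherin. For 12 Pcdha members the share was 45.1 to 51.4%. The other 3 Pcdha symbols had no single locus there. For Pcdhb members the share was 90.3 to 100%. Overlap with genes outside the clusters was not checked. Pcdhga6 had 0 counts in WT replicates 1 and 2 and Hmgn2-/- replicate 1, where Pcdhgc3 had 167, 123 and 206 counts, a pair of genes chosen after their values were seen. Reads in shared exons were therefore not added to every Pcdhg gene in those 3 libraries.

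Hmgn1 and Hmgn2 were read as a check of the genotypes. Hmgn1 was at 674, 602 and 620.0 CPM in WT, 139, 138 and 140.3 CPM in Hmgn1-/-, 548, 555 and 621 CPM in Hmgn2-/-, and 21.7, 19.9 and 21.3 CPM in Hmgn1-/-Hmgn2-/-. Hmgn2 was at 139, 123 and 121 CPM in WT, 106, 112 and 108 CPM in Hmgn1-/-, 51.0, 54.4 and 52.1 CPM in Hmgn2-/-, and 54.3, 50.5 and 54.1 CPM in Hmgn1-/-Hmgn2-/-. Each gene was lower in every library of the lines that carried its allele than in every WT library, and RNA from both remained. Hmgn2 was also a little lower in Hmgn1-/-, with a log2 fold change of -0.21 (adjusted p 0.0275). Against WT, edgeR gave Hmgn1 a log2 fold change of -2.16 ± 0.057 (SE, adjusted p 3.36e-11) in Hmgn1-/- and -4.89 ± 0.069 (adjusted p 8.56e-15) in Hmgn1-/-Hmgn2-/-. It gave Hmgn2 -1.24 ± 0.085 (adjusted p 5.73e-06) in Hmgn2-/- and -1.25 ± 0.068 (adjusted p 1.95e-08) in Hmgn1-/-Hmgn2-/-.

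The Pcdhg cluster held almost all of the signal, with 96.8 ± 1.07% of the CPM of the 59 genes in WT (SD, n = 3), 97.3 ± 0.678% in Hmgn1-/-, 96.8 ± 1.13% in Hmgn2-/- and 96.2 ± 2.23% in Hmgn1-/-Hmgn2-/-. Summed over the 15 Pcdha genes, the level was 0.159, 0.284 and 0.105 CPM in WT, 0.0385, 0.190 and 0.136 CPM in Hmgn1-/-, 0.309, 0.151 and 0.173 CPM in Hmgn2-/-, and 0.0645, 0.135 and 0.151 CPM in Hmgn1-/-Hmgn2-/-. These sums rested on 1 to 8 counts per library, and the ranges of all 4 genotypes overlapped. The Pcdhb sum over 22 genes was 0.604, 1.08 and 0.491 CPM in WT, 0.771, 0.950 and 1.14 CPM in Hmgn1-/-, 1.35, 1.28 and 0.404 CPM in Hmgn2-/-, and 0.710, 2.21 and 0.984 CPM in Hmgn1-/-Hmgn2-/-. It rested on 7 to 49 counts, and again each knockout range overlapped that of WT. Without replicate 2 the Hmgn1-/-Hmgn2-/- mean of the Pcdhb sum was 0.847 CPM, in place of 1.30 CPM. In the comparisons with WT by edgeR with all 6 libraries, no Pcdha gene and 0 Pcdhb genes passed the filter on low counts. With no such filter 7, 11 and 10 Pcdha genes and 15, 14 and 17 Pcdhb genes were tested in Hmgn1-/-, Hmgn2-/- and Hmgn1-/-Hmgn2-/-, and 0 were past the threshold. Of these, 1 was at an adjusted p under 0.05, Pcdhb17 in Hmgn1-/-Hmgn2-/-. DESeq2 tested the same numbers but gave an adjusted p to 0 Pcdha genes and 2, 3 and 3 Pcdhb genes, of which 0 were under 0.05.

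Of the 59 genes, 30 had at most 3 counts in every library, comprising 14 Pcdha and 16 Pcdhb genes. The exception in Pcdha was Pcdha5, with 4 counts in Hmgn2-/- replicate 1. Pcdhac2, a C-type member, had 3, 3 and 1 counts in WT, 1, 3 and 1 in Hmgn1-/-, 0, 1 and 1 in Hmgn2-/-, and 0, 2 and 1 in Hmgn1-/-Hmgn2-/-. Pcdhac1, the other C-type member of Pcdha, had 1 count in all 12 libraries together. The Pcdhb gene with the most counts, Pcdhb17, had 6, 4 and 3 counts in WT, 6, 9 and 8 in Hmgn1-/-, 18, 12 and 2 in Hmgn2-/-, and 7, 23 and 15 in Hmgn1-/-Hmgn2-/-. Scaled by depth this was 0.191, 0.227 and 0.105 CPM in WT, 0.231, 0.427 and 0.364 CPM in Hmgn1-/-, 0.695, 0.453 and 0.115 CPM in Hmgn2-/-, and 0.226, 1.04 and 0.568 CPM in Hmgn1-/-Hmgn2-/-. The Hmgn1-/- libraries lay above WT, the lowest of them by 0.231 to 0.227 CPM, while Hmgn2-/- replicate 3 and Hmgn1-/-Hmgn2-/- replicate 1 lay within the WT range.

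The Pcdhg sum over 22 genes was 24.0, 30.0 and 26.3 CPM in WT, 39.5, 40.0 and 36.6 CPM in Hmgn1-/-, 39.9, 36.5 and 29.3 CPM in Hmgn2-/-, and 37.6, 34.9 and 35.6 CPM in Hmgn1-/-Hmgn2-/-. All Hmgn1-/- and Hmgn1-/-Hmgn2-/- libraries lay above all WT libraries. In Hmgn2-/-, replicate 3 at 29.3 CPM lay below WT replicate 2 at 30.0 CPM, and the other 2 libraries lay above every WT library. The means were 26.8 ± 3.03 CPM (SD, n = 3) in WT, 38.7 ± 1.82 CPM in Hmgn1-/-, 35.2 ± 5.43 CPM in Hmgn2-/- and 36.0 ± 1.41 CPM in Hmgn1-/-Hmgn2-/-. Without replicate 3 the Hmgn2-/- mean was 38.2 CPM. The ratios of the knockout means to the WT mean were 1.44, 1.32 and 1.35 in that order. The sums were not tested, and in bulk RNA more cells of a type and more RNA per cell cannot be told apart, and neither can fewer cells of a type and less RNA per cell. The 3 comparisons with WT share the same 3 WT libraries.

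**Figure D1:**
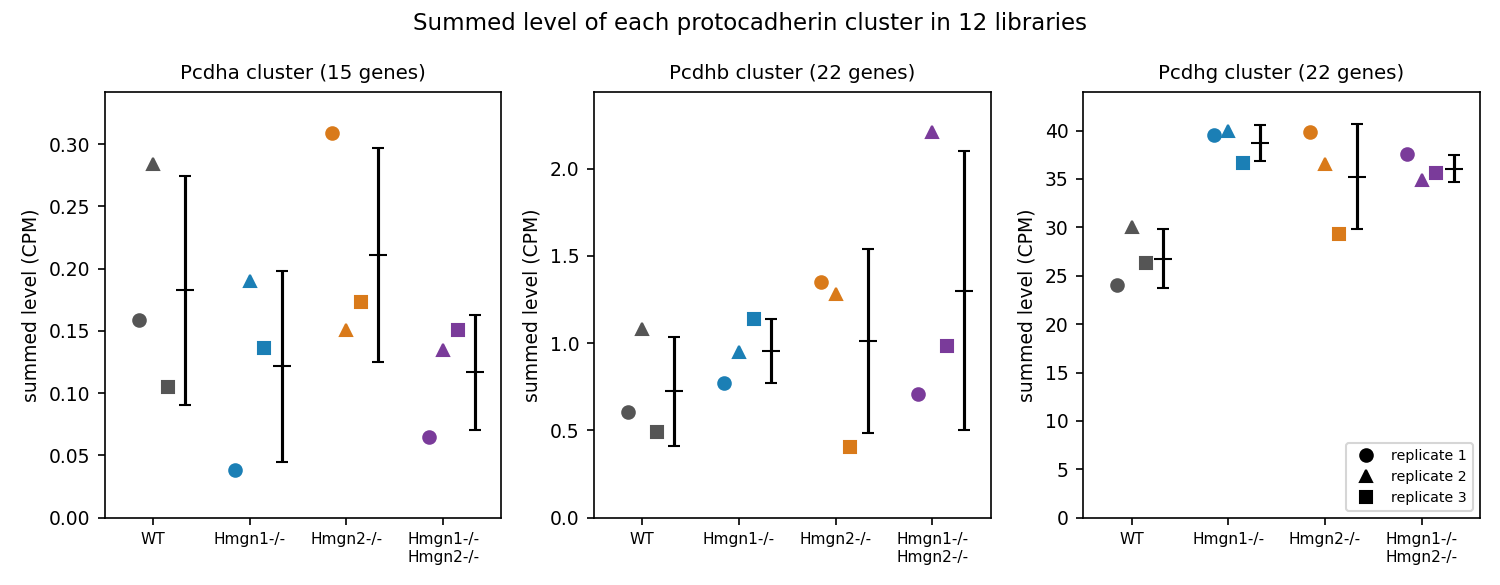
Summed CPM of the Pcdha, Pcdhb and Pcdhg clusters by genotype, with a marker for each replicate and a black bar for the mean with SD (n = 3). The Pcdhg sum was 24.0 to 30.0 CPM in WT and 29.3 to 40.0 CPM in the knockouts, while the Pcdha and Pcdhb ranges of the knockouts overlapped those of WT.

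The A-type sum over 12 genes was 12.8, 16.1 and 12.9 CPM in WT, 22.5, 21.5 and 20.0 CPM in Hmgn1-/-, 20.7, 20.6 and 16.4 CPM in Hmgn2-/-, and 18.7, 18.7 and 20.3 CPM in Hmgn1-/-Hmgn2-/-. The B-type sum over 7 genes was 5.41, 6.42 and 5.85 CPM in WT, 9.29, 10.0 and 9.14 CPM in Hmgn1-/-, 10.8, 9.44 and 7.44 CPM in Hmgn2-/-, and 10.6, 9.03 and 8.03 CPM in Hmgn1-/-Hmgn2-/-. For both types every knockout library lay above every WT library, with the A-type sum of Hmgn2-/- replicate 3, at 16.4 CPM, closest to WT. The ratios of means to WT were 1.53, 1.38 and 1.38 for A-type and 1.61, 1.57 and 1.57 for B-type members in Hmgn1-/-, Hmgn2-/- and Hmgn1-/-Hmgn2-/-. The C-type sum over the 3 Pcdhgc genes was 5.88, 7.49 and 7.47 CPM in WT, 7.63, 8.50 and 7.50 CPM in Hmgn1-/-, 8.41, 6.42 and 5.48 CPM in Hmgn2-/-, and 8.29, 7.22 and 7.27 CPM in Hmgn1-/-Hmgn2-/-. Here Hmgn2-/- and Hmgn1-/-Hmgn2-/- overlapped WT, and the lowest Hmgn1-/- library (7.50 CPM) was next to the highest WT library (7.49 CPM). The C-type ratios of means were 1.13, 0.974 and 1.09. C-type members made up 26.0 ± 2.16% of the Pcdhg sum in WT (SD, n = 3), 20.4 ± 0.968% in Hmgn1-/-, 19.1 ± 1.77% in Hmgn2-/- and 21 ± 0.852% in Hmgn1-/-Hmgn2-/-. Every WT library had a higher C-type share than every knockout library, and the difference between types was not tested.

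**Figure D2:**
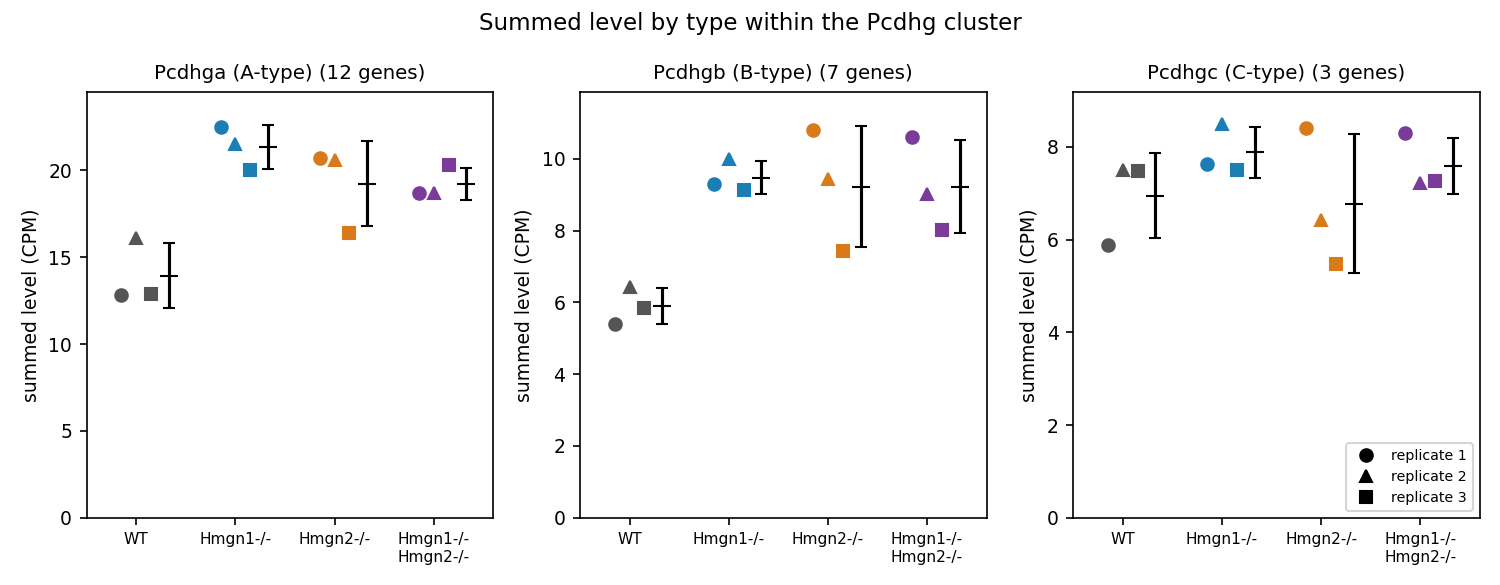
Summed CPM of A-type, B-type and C-type Pcdhg members by genotype, with a marker for each replicate and a black bar for the mean with SD (n = 3). A-type and B-type sums of all knockout libraries were above the highest WT values of 16.1 and 6.42 CPM, and C-type sums lay between 5.48 and 8.50 CPM across the 4 genotypes.

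Levels of different Pcdhg genes were compared as CPM per kilobase of exon that belongs to no other clustered protocadherin, averaged over the 12 libraries. The lowest was Pcdhga6 at 0.0354, the median over 22 genes was 0.414 and the highest was Pcdhgc3 at 2.02. By genotype Pcdhgc3 was highest in all 4, while the lowest was Pcdhga6 in WT and Hmgn2-/- and Pcdhgc4 in Hmgn1-/- and Hmgn1-/-Hmgn2-/-. After Pcdhgc3 came Pcdhga11 at 1.59 and Pcdhga1 at 1.04 on this scale. The other C-type members were near the bottom, with Pcdhgc5 at 0.0632 and Pcdhgc4 at 0.0396. These lengths come from GENCODE M21, which may differ from the annotation used for counting. The scale holds only if reads in shared exons were counted for no gene, which is not known.

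**Figure D3:**
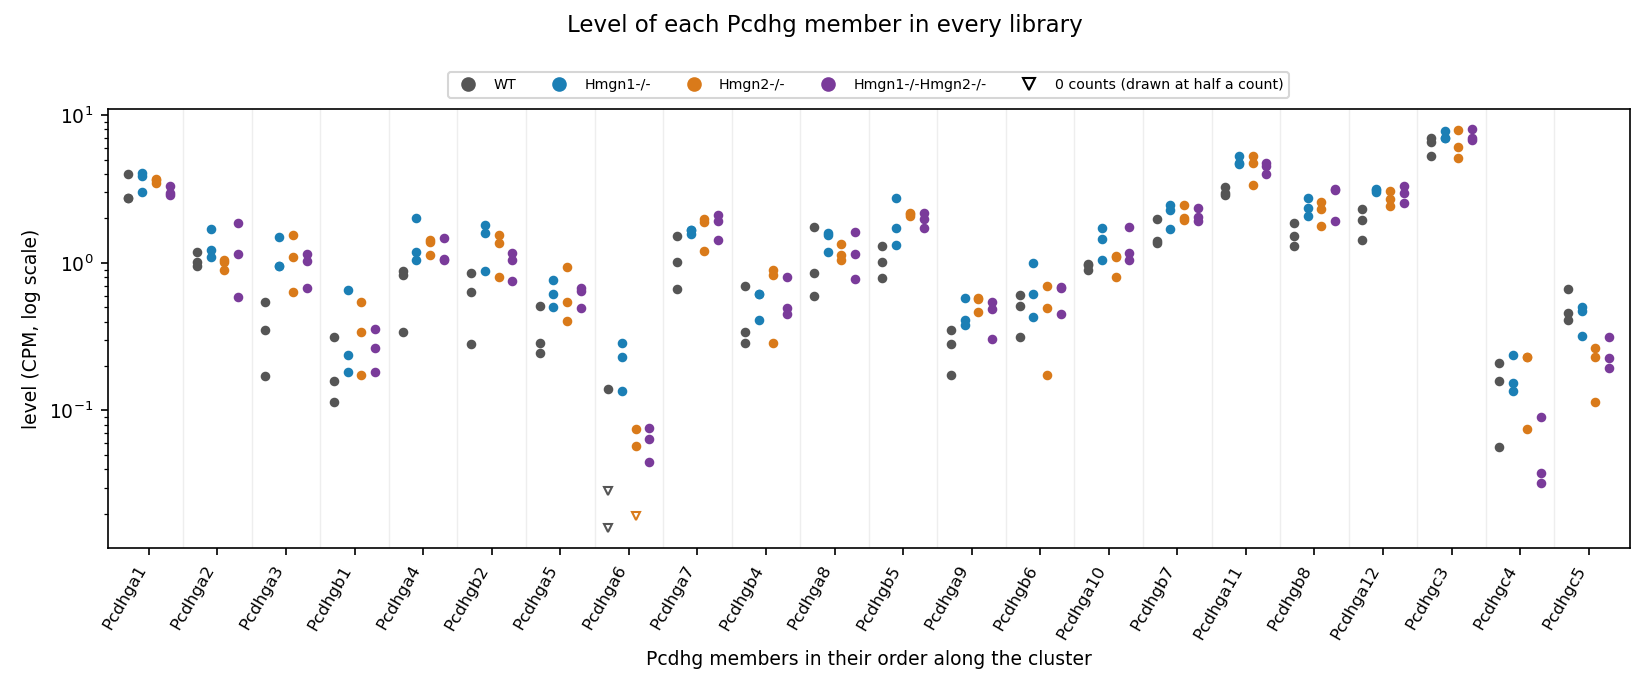
CPM of each of the 22 Pcdhg genes in each of the 12 libraries on a log axis, with genotype by colour and open triangles for counts of 0, drawn below the level of 1 count. Pcdhgc3 ran from 5.13 to 8.06 CPM, and Pcdhga3 was at 0.170 to 0.541 CPM in WT against 0.634 to 1.54 CPM in the knockouts.

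Single members were compared by edgeR over all genes with enough counts, and the threshold was an adjusted p under 0.01 with a log2 fold change of at least 1 in size. The question was how loss of HMGN1, HMGN2 or both changed gene expression in mESCs. Of the 59 genes, 18 were tested in Hmgn1-/- against WT, 19 in Hmgn2-/- against WT and 18 in Hmgn1-/-Hmgn2-/- against WT, all of them Pcdhg. In Hmgn1-/-, 5 passed the filter with all 3 knockout libraries over its cutoff and at least 1 WT library under it (Pcdhga3, Pcdhga4, Pcdhgb2, Pcdhga5 and Pcdhgb6). In Hmgn2-/- the same held for Pcdhga3, Pcdhga4, Pcdhgb2, Pcdhga5 and Pcdhga9, and in Hmgn1-/-Hmgn2-/- for 6 genes, Pcdhga3, Pcdhga4, Pcdhgb2, Pcdhga5, Pcdhgb4 and Pcdhgb6. Conversely, Pcdhgc5 passed through the WT libraries in Hmgn2-/- and in Hmgn1-/-Hmgn2-/-. Those of these genes not described further were named after their values were seen. Pcdhgb1, Pcdhga6 and Pcdhgc4 passed the filter in none of the 6 comparisons, again named after their values were seen. DESeq2 and edgeR with no filter tested all 22 Pcdhg genes.

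In Hmgn1-/- against WT, 1 of the 18 tested genes, Pcdhga3, was past the threshold and higher, where 0.898% of 13917 genes were. With all 6 libraries 0 of 18 were past it and lower, where 5.08% of genes were. The number past the threshold was 2 with a replicate block or with no filter on low counts, when Pcdhgb2 joined Pcdhga3, and 0 with DESeq2. It was 1 without WT replicate 1 and 0 without any one of the other 5 libraries, WT replicates 2 and 3 and Hmgn1-/- replicates 1, 2 and 3. With an adjusted p under 0.05 alone, 5 of 18 were higher (13.3% of all genes) and 0 were lower (15.1%). The 5 became 2 without Hmgn1-/- replicate 1 and 3 without WT replicate 3 or Hmgn1-/- replicate 2 or 3. In all 6 fits where DESeq2 or a left-out library took Pcdhga3 below the threshold, it was the adjusted p that no longer passed. The log2 fold change was 1.65 by DESeq2 and 1.35 to 1.72 in the other 5 fits. At an unadjusted p under 0.05 there were 9 of 18 by edgeR, where 38.7% of all genes were, and 7 of 44 by DESeq2, where 27.5% were. For 9 of 18 the 3 knockout libraries all lay above the 3 WT libraries (18.2% of all genes), and for 0 they all lay below (23.4%). The median log2 fold change was 0.60 over the 18 and 0.00 over all genes tested. Of the 18, 11 had all 6 libraries above the filter's cutoff, which Pcdhga3 did not, and their median was 0.58. Of these 11, 3 were higher with an adjusted p under 0.05 (14.0% of the 12892 such genes) and 0 lower (13.7%). The knockout libraries all lay above WT for 6 of the 11 (19.0%) and all below for 0 (22.0%).

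In Hmgn2-/- against WT, 0 of 19 genes were past the threshold by edgeR in either direction, where 0.776% of 14047 genes were past it and higher and 4.38% lower. DESeq2 put 1 past it, Pcdhgb5, as did edgeR with no filter on low counts, and with all 12 libraries in a single fit there were 2, Pcdhga3 and Pcdhgb5. Without Hmgn2-/- replicate 3 edgeR put 1 past it, Pcdhga3. At an unadjusted p under 0.05 there were 11 of 19 by edgeR (31.0% of all genes) and 6 of 47 by DESeq2 (22.9%). The 11 became 5 without Hmgn2-/- replicate 2, 6 without WT replicate 3 and 7 without WT replicate 1 or Hmgn2-/- replicate 1. Under an adjusted p of 0.05, 3 of 19 were higher (7.63% of all genes) and 0 lower (11.2%). Counted in either direction, the 3 became 1 without WT replicate 2 or 3 or Hmgn2-/- replicate 1 or 2. They became 5 without Hmgn2-/- replicate 3, including Pcdhb17, which was not tested with all 6 libraries. With all 12 libraries in a single fit there were 6, including Pcdhgc5, which was lower (-1.23, adjusted p 0.0428). The knockout libraries all lay above the WT libraries for 6 of 19 (13.9%) and all below for 1, Pcdhgc5 (21.4%). The median log2 fold change was 0.59 over the 19, 0.51 over the 11 genes with all 6 libraries above the cutoff and 0.01 over all genes. Of these 11, 2 were higher with an adjusted p under 0.05 (7.89% of the 12997 such genes) and 0 lower (9.92%). For 3 of the 11 the knockout libraries all lay above WT (14.2%) and for 0 all below (20.0%).

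In Hmgn1-/-Hmgn2-/- against WT, 0 of 18 were past the threshold by edgeR in either direction, where 1.30% of 14128 genes were past it and higher and 5.00% lower. DESeq2 also put 0 past it, and edgeR with a replicate block put 1 past it, Pcdhga3. Without WT replicate 1 there was 1, Pcdhga3, and without Hmgn1-/-Hmgn2-/- replicate 1 there was 1, Pcdhb17, which was not tested with all 6 libraries. At an unadjusted p under 0.05 there were 10 of 18 by edgeR (38.9% of all genes) and 7 of 49 by DESeq2 (27.8%). By the adjusted p under 0.05 alone, 5 of 18 were higher (13.5% of all genes) and 0 lower (15.5%). The 5 became 3 by DESeq2 or without Hmgn1-/-Hmgn2-/- replicate 2, and 2 without WT replicate 3 or Hmgn1-/-Hmgn2-/- replicate 1 or 3. Without replicate 1 of that genotype the 2 included Pcdhb17. The knockout libraries all lay above the WT libraries for 7 of 18 (19.2%) and all below for 1, Pcdhgc5 (23.1%). The median log2 fold change was 0.54 over the 18, 0.50 over the 11 genes with all 6 libraries above the cutoff and 0.00 over all genes. Of these 11, 4 were higher with an adjusted p under 0.05 (14.1% of the 13058 such genes) and 0 lower (14.3%). For 5 of the 11 the knockout libraries all lay above WT (19.8%) and for 0 all below (22.0%).

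**Figure D4:**
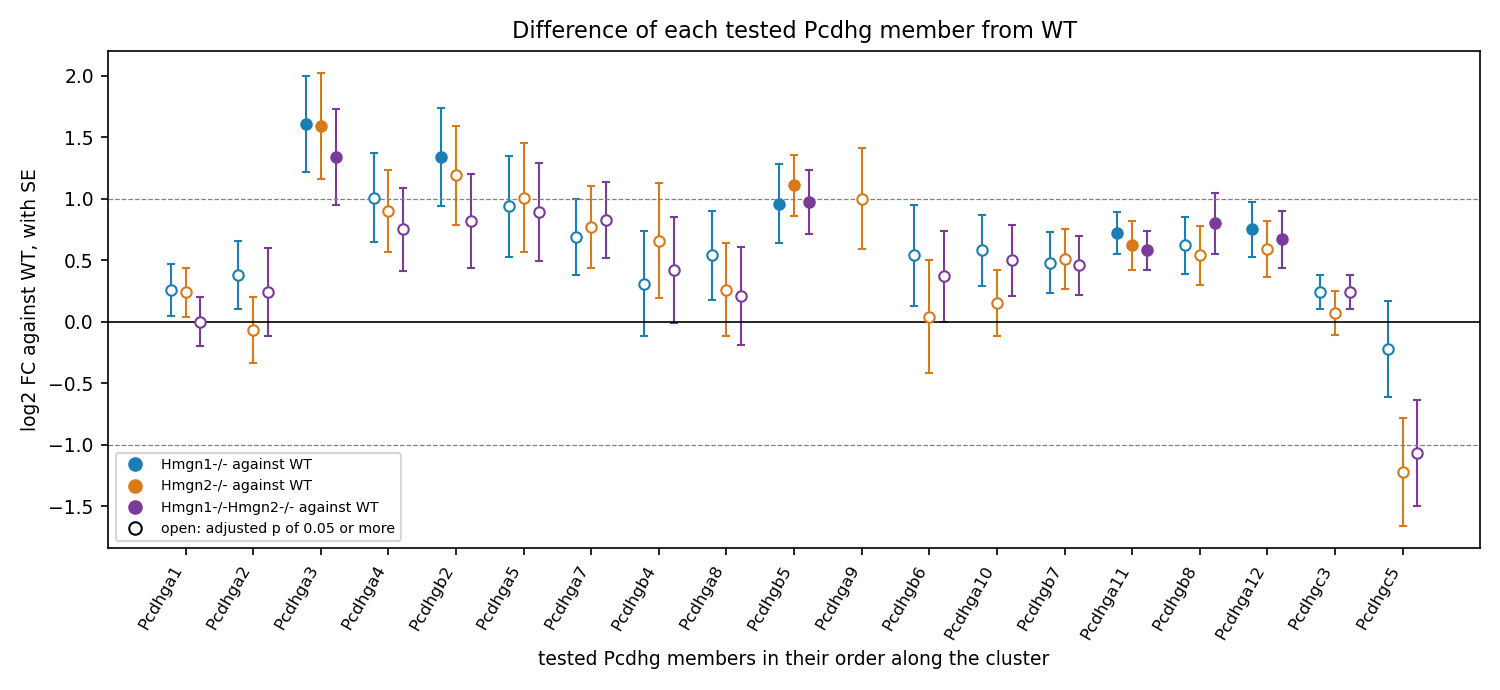
Log2 fold change against WT of each tested Pcdhg gene in the 3 knockouts, with bars for the SE of the edgeR fit, filled markers at an adjusted p under 0.05 and dashed lines at a size of 1. Pcdhga3 was highest in each knockout, at 1.61, 1.59 and 1.34, and Pcdhgc5 was lowest, at -0.22, -1.22 and -1.07.

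The A-type member Pcdhga3 was at 0.541, 0.170 and 0.351 CPM in WT, 1.50, 0.950 and 0.955 CPM in Hmgn1-/-, 1.54, 1.09 and 0.634 CPM in Hmgn2-/-, and 1.03, 0.677 and 1.14 CPM in Hmgn1-/-Hmgn2-/-. Every knockout library was above every WT library, on 3 to 17 counts in WT and 11 to 40 in the knockouts. The log2 fold change against WT was 1.61 ± 0.39 (SE, adjusted p 0.00677) in Hmgn1-/-, 1.59 ± 0.43 (adjusted p 0.0236) in Hmgn2-/- and 1.34 ± 0.39 (adjusted p 0.0193) in Hmgn1-/-Hmgn2-/-. In each comparison it passed the filter through the knockout libraries, since only 1 WT library was over the cutoff.

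Another A-type member, Pcdhga11, was at 2.96, 3.24 and 2.87 CPM in WT, 4.74, 5.32 and 4.64 CPM in Hmgn1-/-, 4.71, 5.32 and 3.35 CPM in Hmgn2-/-, and 4.74, 4.02 and 4.54 CPM in Hmgn1-/-Hmgn2-/-. All knockout libraries were above all WT libraries, with Hmgn2-/- replicate 3 closest to them. The log2 fold change was 0.72 ± 0.17 (adjusted p 0.00460), 0.62 ± 0.20 (adjusted p 0.0498) and 0.58 ± 0.16 (adjusted p 0.0169) in Hmgn1-/-, Hmgn2-/- and Hmgn1-/-Hmgn2-/-, each smaller than the threshold's 1. Pcdhga12, the last A-type exon before the C-type exons, was at 1.43, 2.33 and 1.96 CPM in WT, 3.04, 3.09 and 3.18 CPM in Hmgn1-/-, 3.05, 2.72 and 2.42 CPM in Hmgn2-/-, and 2.55, 3.34 and 2.95 CPM in Hmgn1-/-Hmgn2-/-. The groups did not overlap with WT, although Hmgn2-/- replicate 3 at 2.42 CPM was near WT replicate 2 at 2.33 CPM. Its log2 fold change was 0.75 ± 0.22 (adjusted p 0.0214), 0.59 ± 0.23 (adjusted p 0.110) and 0.67 ± 0.23 (adjusted p 0.0430).

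Pcdhga1, the first A-type exon of the cluster, was at 2.77, 3.97 and 2.77 CPM in WT, 3.89, 4.08 and 3.00 CPM in Hmgn1-/-, 3.67, 3.62 and 3.46 CPM in Hmgn2-/-, and 2.90, 2.98 and 3.33 CPM in Hmgn1-/-Hmgn2-/-. The ranges overlapped in all 3 comparisons, with WT replicate 2 above all Hmgn2-/- and Hmgn1-/-Hmgn2-/- libraries. Its log2 fold change was 0.26 ± 0.21 (adjusted p 0.392), 0.24 ± 0.20 (adjusted p 0.468) and 0.00 ± 0.20 (adjusted p 0.991). Without WT replicate 2 the value of 0.00 in Hmgn1-/-Hmgn2-/- became 0.17.

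Of the B-type members, Pcdhgb5 was at 0.795, 1.31 and 1.02 CPM in WT, 2.74, 1.71 and 1.32 CPM in Hmgn1-/-, 2.08, 2.15 and 2.19 CPM in Hmgn2-/-, and 2.16, 1.72 and 1.97 CPM in Hmgn1-/-Hmgn2-/-. No knockout library was below a WT library, but Hmgn1-/- replicate 3 at 1.32 CPM was next to WT replicate 2 at 1.31 CPM. Here the log2 fold change was 0.96 ± 0.32 (adjusted p 0.0357), 1.11 ± 0.25 (adjusted p 0.0107) and 0.97 ± 0.26 (adjusted p 0.0125), the first being 0.61 without Hmgn1-/- replicate 1. Pcdhgb2 was at 0.636, 0.852 and 0.280 CPM in WT, 0.886, 1.80 and 1.59 CPM in Hmgn1-/-, 1.54, 1.36 and 0.807 CPM in Hmgn2-/-, and 1.16, 1.04 and 0.757 CPM in Hmgn1-/-Hmgn2-/-. WT replicate 2 was above Hmgn2-/- replicate 3 and Hmgn1-/-Hmgn2-/- replicate 3, and Hmgn1-/- did not overlap with WT. For this gene the log2 fold change was 1.34 ± 0.40 (adjusted p 0.0219), 1.19 ± 0.40 (adjusted p 0.0585) and 0.82 ± 0.38 (adjusted p 0.128), the last being 0.45 without WT replicate 3. Pcdhgb8 was at 1.53, 1.31 and 1.86 CPM in WT, 2.08, 2.75 and 2.36 CPM in Hmgn1-/-, 2.59, 2.30 and 1.79 CPM in Hmgn2-/-, and 3.13, 3.16 and 1.93 CPM in Hmgn1-/-Hmgn2-/-. Hmgn2-/- replicate 3 was below WT replicate 3, and the other knockout libraries were above all of WT. Its log2 fold change was 0.62 ± 0.23 (adjusted p 0.0639), 0.54 ± 0.24 (adjusted p 0.143) and 0.80 ± 0.25 (adjusted p 0.0263).

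Among the C-type members, Pcdhgc3 was at 5.31, 6.98 and 6.59 CPM in WT, 6.97, 7.79 and 7.05 CPM in Hmgn1-/-, 7.95, 6.08 and 5.13 CPM in Hmgn2-/-, and 8.06, 6.82 and 7.0 CPM in Hmgn1-/-Hmgn2-/-. The ranges overlapped in each comparison, narrowly in Hmgn1-/-, and both the highest and the lowest Hmgn2-/- library lay outside the WT range. The log2 fold change was 0.24 ± 0.14 (adjusted p 0.245), 0.07 ± 0.18 (adjusted p 0.842) and 0.24 ± 0.14 (adjusted p 0.234), and without WT replicate 1 it was 0.12, -0.05 and 0.12. In Hmgn2-/- it was -0.11 without Hmgn2-/- replicate 1. Pcdhgc5 was at 0.413, 0.454 and 0.666 CPM in WT, 0.501, 0.475 and 0.318 CPM in Hmgn1-/-, 0.232, 0.264 and 0.115 CPM in Hmgn2-/-, and 0.194, 0.316 and 0.227 CPM in Hmgn1-/-Hmgn2-/-. All Hmgn2-/- and Hmgn1-/-Hmgn2-/- libraries were below all WT libraries, on 2 to 7 counts against 8 to 19, while Hmgn1-/- overlapped with WT. The log2 fold change was -0.22 ± 0.39 (adjusted p 0.720), -1.22 ± 0.44 (adjusted p 0.0827) and -1.07 ± 0.43 (adjusted p 0.0787). In these fits it was not under an adjusted p of 0.05 in any comparison. With all 12 libraries in a single fit the log2 fold change in Hmgn2-/- was -1.23 (adjusted p 0.0428). Without WT replicate 3 the value in Hmgn1-/- was 0.04. Pcdhgc4 was at 0.0323 to 0.237 CPM over the 12 libraries and did not pass the filter.

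The knockouts were also compared with one another, in the double knockout against each single knockout and between the single knockouts. Each comparison tested 19 of the 59 genes, namely 18 Pcdhg genes and Pcdhb17. By edgeR, 0 of 19 were past the threshold in Hmgn1-/-Hmgn2-/- against Hmgn2-/- (0.0434% of 13816 genes), in Hmgn1-/-Hmgn2-/- against Hmgn1-/- (0.511% of 13710 genes) and in Hmgn2-/- against Hmgn1-/- (0.176% of 13648 genes). At an adjusted p under 0.05 there were also 0 in each, where 0.261%, 1.82% and 0.469% of all genes were. At an unadjusted p under 0.05 there were 0 by edgeR in each of the 3, where 4.44%, 9.53% and 3.20% of all genes were. By DESeq2 there were also 0, of 49, 46 and 45 tested, where 2.76%, 6.11% and 1.86% of all genes were, and it put 0 past the threshold. Log2 fold changes ran from -0.37 to 0.35 in Hmgn1-/-Hmgn2-/- against Hmgn2-/-, from -0.51 to 0.78 in Hmgn1-/-Hmgn2-/- against Hmgn1-/- and from -0.50 to 0.43 in Hmgn2-/- against Hmgn1-/-. Their SEs were 0.15 to 0.61, 0.12 to 0.53 and 0.16 to 0.53. Some differences were larger than their SE, such as 0.78 ± 0.53 for Pcdhb17 and -0.51 ± 0.31 for Pcdhgb2 in Hmgn1-/-Hmgn2-/- against Hmgn1-/-. The libraries did not overlap for 1 of 19 genes in Hmgn1-/-Hmgn2-/- against Hmgn2-/- (9.92% of all genes), 0 in Hmgn1-/-Hmgn2-/- against Hmgn1-/- (15.0%) and 1 in Hmgn2-/- against Hmgn1-/- (8.17%). These were Pcdhga1, lower in Hmgn1-/-Hmgn2-/- at -0.24 ± 0.15, and Pcdhga2, lower in Hmgn2-/- at -0.46 ± 0.27 and named after its values were seen. For Pcdhga3 the log2 fold changes were -0.24 ± 0.34, -0.26 ± 0.31 and -0.02 ± 0.34 in the same order.

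Genes for factors that act on the clusters were read as lists, and fold changes, counts and medians are given in the order Hmgn1-/-, Hmgn2-/- and Hmgn1-/-Hmgn2-/-. The counts of each list are to be read against all genes, of which 38.7%, 31.0% and 38.9% were at an unadjusted p under 0.05 by edgeR and 27.5%, 22.9% and 27.8% by DESeq2. With an adjusted p under 0.05 by edgeR, 13.3%, 7.63% and 13.5% of all genes were higher and 15.1%, 11.2% and 15.5% lower. Past the threshold by edgeR, 0.898%, 0.776% and 1.30% of all genes were higher and 5.08%, 4.38% and 5.00% lower. Genes named from a list for an adjusted p under 0.05 alone were chosen after their values were seen. Of 13 genes for CTCF, cohesin and related chromatin architecture factors, 12 were tested and Wapl had no row. In all 3 comparisons with WT 0 were past the threshold by edgeR and 0 by DESeq2, and at an unadjusted p under 0.05 there were 5, 2 and 5 of 12 by either tool. With an adjusted p under 0.05, 4 were higher in Hmgn1-/-, 0 in Hmgn2-/- and 3 in Hmgn1-/-Hmgn2-/-, and 0 were lower. The 4 in Hmgn1-/- were Ctcf, Mau2, Pds5a and Wiz and the 3 in Hmgn1-/-Hmgn2-/- were Ctcf, Stag2 and Pds5a. For Ctcf, which binds the promoters and enhancers of the clusters, the log2 fold change was 0.20 (adjusted p 0.0124), 0.21 (adjusted p 0.129) and 0.21 (adjusted p 0.0104). The most abundant gene of the list by CPM, the cohesin subunit Rad21, had log2 fold changes of 0.06, 0.01 and 0.07. The medians over the list were 0.07, 0.09 and 0.08, against 0.00, 0.01 and 0.00 over all genes.

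Of 18 genes for DNA methylation and silencing factors, all were tested and 0 were past the threshold by edgeR or DESeq2 in each comparison with WT. The list held Tet1, Tet2 and Tet3 beside the DNA methyltransferase genes. There were 9, 7 and 11 of 18 at an unadjusted p under 0.05 by either tool (38.7%, 31.0% and 38.9% of all genes by edgeR). With an adjusted p under 0.05, 6 were higher in Hmgn1-/-, Smchd1, Dnmt3a, Ehmt2, Tet1, Tet2 and Eed, and 3 lower, Dnmt3l, Uhrf1 and Suz12. In Hmgn2-/- there were 2 higher, Dnmt3a and Ehmt2, and 1 lower, Dnmt3l. In Hmgn1-/-Hmgn2-/- there were 5 higher, Smchd1, Dnmt3a, Ehmt2, Tet1 and Eed, and 2 lower, Dnmt3l and Uhrf1. The most abundant by CPM, Trim28, had log2 fold changes of -0.08, -0.13 and -0.14, and the medians were 0.08, 0.07 and 0.11. The DNA methyltransferase gene Dnmt3a was at 316, 319 and 271 CPM in WT, 484, 520.0 and 450.2 CPM in Hmgn1-/-, 559, 542 and 469 CPM in Hmgn2-/-, and 609, 552 and 539 CPM in Hmgn1-/-Hmgn2-/-. Every knockout library was above every WT library, with log2 fold changes of 0.70 (adjusted p 7.23e-06), 0.83 (adjusted p 1.10e-04) and 0.92 (adjusted p 4.08e-07). Its cofactor gene Dnmt3l had -0.72 (adjusted p 1.47e-04), -0.76 (adjusted p 0.00244) and -0.65 (adjusted p 4.40e-04). Tet1 had 0.54 (adjusted p 5.19e-05), 0.52 (adjusted p 0.0558) and 0.57 (adjusted p 2.42e-04). For Smchd1, a factor that silences the clusters in other cells, the values were 0.21 (adjusted p 0.0325), 0.32 (adjusted p 0.0567) and 0.32 (adjusted p 0.00532).

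Non-clustered protocadherins, which share the adhesion domains but lie elsewhere in the genome, were summed over 12 genes. The sum was 22.6, 21.5 and 20.1 CPM in WT, 13.9, 13.1 and 13.1 CPM in Hmgn1-/-, 16.4, 14.3 and 10.9 CPM in Hmgn2-/-, and 17.4, 13.4 and 15.1 CPM in Hmgn1-/-Hmgn2-/-. All knockout libraries were below all WT libraries, the opposite direction to the Pcdhg sum. Pcdh1 was the most abundant by CPM and made up 17.1 of the mean of 21.4 CPM in WT. Of the 12 genes, 5 were tested in each comparison with WT. Pcdh18 was past the threshold and lower by edgeR and DESeq2 in each, and 0 were higher. By edgeR 5.08%, 4.38% and 5.00% of all genes were past it and lower. At an unadjusted p under 0.05 there were 3, 3 and 3 by edgeR and 4, 4 and 3 by DESeq2. Pcdh18 was at 0.986, 0.795 and 1.05 CPM in WT, 0.0385, 0.427 and 0.0455 CPM in Hmgn1-/-, 0.309, 0.113 and 0.115 CPM in Hmgn2-/-, and 0.323, 0.135 and 0.0757 CPM in Hmgn1-/-Hmgn2-/-. No knockout library reached the lowest WT library, and log2 fold changes were -2.51 ± 0.57 (adjusted p 0.00439), -2.30 ± 0.43 (adjusted p 0.00330) and -2.31 ± 0.44 (adjusted p 0.00137). It passed the filter through WT, the group where it was high, with 3 WT libraries over the cutoff against 1, 0 and 0 knockout libraries. With no filter on low counts it was past the threshold in each, at an adjusted p of 2.87e-04, 0.00162 and 2.38e-04. Pcdh7, which did not pass the filter and was named after its values were seen, was then also past it in Hmgn1-/- at -3.88 (adjusted p 0.00753). Pcdh18 was not past the threshold in Hmgn1-/- without WT replicate 2 (adjusted p 0.0102), WT replicate 3 (0.0122), Hmgn1-/- replicate 1 (0.0325) or Hmgn1-/- replicate 3 (0.0273). In Hmgn2-/- it was not past it without WT replicate 1 (0.0110), WT replicate 2 (0.0103), WT replicate 3 (0.0173) or Hmgn2-/- replicate 2 (0.0233), and in Hmgn1-/-Hmgn2-/- without replicate 3 of that genotype (0.0104). Its log2 fold change in these fits was -2.60, -2.43, -1.98 and -2.10 in Hmgn1-/-, -2.29, -2.39, -2.22 and -2.01 in Hmgn2-/- and -1.95 in Hmgn1-/-Hmgn2-/-, so it was the adjusted p that no longer passed. With an adjusted p under 0.05 alone, 3 of the list were lower in Hmgn1-/- (Pcdh1, Pcdh8 and Pcdh18) and 2 in each of the other knockouts (Pcdh1 and Pcdh18). In Hmgn1-/- Pcdh8 also passed the filter through WT, with 0 knockout libraries over the cutoff, and its adjusted p of 0.0118 was 0.0122 with no filter and 0.0592 by DESeq2. The medians over the 5 tested were -0.61, -0.61 and -0.40. Among these 5, Pcdh19, named after its values were seen, was above 0 in each. Its log2 fold changes were 0.19 (adjusted p 0.765), 0.17 (adjusted p 0.821) and 0.37 (adjusted p 0.481).

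Of 15 genes listed as neighbours of the clusters on chromosome 18, 13 were tested, Diaph1 had no row and Slc25a2, named after its values were seen, did not pass the filter. By edgeR 0 were past the threshold in each comparison with WT, as by DESeq2, and the medians were 0.03, 0.05 and 0.03. There were 6, 4 and 4 at an unadjusted p under 0.05 by edgeR and 5, 3 and 4 by DESeq2. With an adjusted p under 0.05, 4 were higher in Hmgn1-/- (Tmco6, Dnd1, Hars and Hars2) and 1 lower (Arap3). In Hmgn2-/- 1 was higher (Dnd1) and 0 lower, and in Hmgn1-/-Hmgn2-/- 1 was higher (Dnd1) and 2 lower (Rell2 and Arap3). The adjusted p of Hars2 in Hmgn1-/-, 0.0466, was 0.0619 with no filter on low counts and 0.0656 by DESeq2, and that of Rell2, 0.0147, was 0.0525 by DESeq2. The gene higher in all 3, Dnd1, had log2 fold changes of 0.65, 0.54 and 0.50. The most abundant by CPM, Hars, had 0.17 (adjusted p 0.0255), 0.16 (adjusted p 0.188) and 0.12 (adjusted p 0.105).

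Of 14 genes for proteins that act with the cytoplasmic domains, 1 was past the threshold and lower in each comparison with WT by edgeR and by DESeq2 and 0 were higher. By edgeR 5.08%, 4.38% and 5.00% of all genes were past it and lower. There were 4, 2 and 6 at an unadjusted p under 0.05 by edgeR and 4, 2 and 5 by DESeq2. The gene past the threshold was Ptk2b, a kinase that Pcdha and Pcdhg proteins inhibit. It was at 27.5, 43.7 and 44.1 CPM in WT, 17.2, 19.0 and 18.7 CPM in Hmgn1-/-, 17.4, 18.9 and 19.4 CPM in Hmgn2-/-, and 16.8, 19.1 and 18.6 CPM in Hmgn1-/-Hmgn2-/-. WT replicate 1 was the lowest of WT and still above every knockout library, and log2 fold changes were -1.04 (adjusted p 1.44e-04), -1.01 (adjusted p 0.00171) and -1.06 (adjusted p 1.28e-04). These were close to the threshold's 1, and the gene was not past it in Hmgn1-/- without WT replicate 2 (-0.94), WT replicate 3 (-0.93) or Hmgn1-/- replicate 1 (-0.99). In Hmgn2-/- it was not past it with a replicate block (-0.98), or without WT replicate 2 (-0.91), WT replicate 3 (-0.90) or Hmgn2-/- replicate 1 (-0.96). In Hmgn1-/-Hmgn2-/- it was not past it without WT replicate 2 (-0.96), WT replicate 3 (-0.95) or replicate 1 of that genotype, where its size was just under 1. By the adjusted p under 0.05 alone, 2 of the list were higher in Hmgn1-/- (Nckap1 and Rac1), 0 in Hmgn2-/- and 3 in Hmgn1-/-Hmgn2-/- (Cyfip1, Nckap1 and Wasf2), and the medians were 0.09, 0.03 and 0.08. Of 6 genes for the proteases that cut the proteins, 0 were past the threshold or under an adjusted p of 0.05 in any comparison with WT by edgeR, and 0 were past the threshold by DESeq2. At an unadjusted p under 0.05 there were 1, 0 and 1 by edgeR and 0, 0 and 1 by DESeq2, and the medians were -0.02, -0.05 and 0.00. The most abundant of these by CPM, Ncstn, had log2 fold changes of -0.01, 0.02 and 0.02.

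The label of the cells was checked against markers. Summed over 8 mESC markers the level was 5642 to 6574 CPM across the 12 libraries, the most abundant by CPM was Pou5f1, none was at 0, and 0 of 8 were past the threshold by edgeR or DESeq2 against WT. There were 4, 4 and 5 at an unadjusted p under 0.05 by either tool. Without WT replicate 1, Klf4 was past the threshold in Hmgn1-/-, at a log2 fold change of 1.01. Considering the adjusted p under 0.05 alone, Esrrb and Klf4 were higher and Nanog lower in all 3 knockouts, and Tdgf1 was also higher in Hmgn1-/-Hmgn2-/-. Clustered protocadherins are best known from neurons, so 12 markers of neural progenitors and neurons were read as well. Their sum was 574, 563 and 573 CPM in WT, 536, 542 and 577 CPM in Hmgn1-/-, 483, 505 and 561 CPM in Hmgn2-/-, and 491, 521 and 536 CPM in Hmgn1-/-Hmgn2-/-. It was lower in every Hmgn2-/- and Hmgn1-/-Hmgn2-/- library than in every WT library and overlapped in Hmgn1-/-. Stmn2 was the most abundant by CPM and made up 343 of the mean of 570.1 CPM in WT, while the median log2 fold changes over the genes tested were 0.13, 0.19 and 0.06. In this list none was at 0 in all libraries, and 0 of 11, 10 and 11 tested were past the threshold by edgeR or DESeq2 in the 3 comparisons with WT. There were 6, 4 and 6 at an unadjusted p under 0.05 by either tool. Without WT replicate 1, Elavl3 was past the threshold in Hmgn1-/-, at a log2 fold change of 1.09. Under an adjusted p of 0.05, 4 were higher in Hmgn1-/- (Sox1, Pax6, Tubb3 and Elavl3), 1 in Hmgn2-/- (Sox1) and 2 in Hmgn1-/-Hmgn2-/- (Sox1 and Elavl3). For Elavl3 in Hmgn1-/- the adjusted p was 0.00884, and 0.0538 by DESeq2. Nes and Neurod1 were lower in all 3 and Stmn2 in Hmgn1-/-Hmgn2-/-.

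Primitive endoderm markers moved with genotype. Summed over 8 genes, they were at 13.9, 16.1 and 16.7 CPM in WT, 121, 91.1 and 96.9 CPM in Hmgn1-/-, 148, 126 and 87.8 CPM in Hmgn2-/-, and 308, 303 and 282 CPM in Hmgn1-/-Hmgn2-/-. Every knockout library was above WT, and the double knockout was above both single knockouts. The Pcdhg sum of the double knockout, at 34.9 to 37.6 CPM, lay within the range of the single knockouts. A link between these sums was not tested. Of the 8 marker genes, 6, 6 and 8 were past the threshold and higher in Hmgn1-/-, Hmgn2-/- and Hmgn1-/-Hmgn2-/- and 0 were lower. Of all genes 0.898%, 0.776% and 1.30% were past it and higher by edgeR. The most abundant by CPM was Cubn, with log2 fold changes of 3.72, 3.88 and 5.38, and none of the 8 was at 0 in WT. Directly, 7 of 8 were past the threshold and higher in Hmgn1-/-Hmgn2-/- against Hmgn1-/-. In either direction, 0.511% of all genes were past it in that comparison and 0.0434% in Hmgn1-/-Hmgn2-/- against Hmgn2-/-. Against Hmgn2-/- there was 1, Dab2, which became 6 with a replicate block, DESeq2 or no filter on low counts, 5 with all 12 libraries in a single fit and 4 without Hmgn2-/- replicate 1. It became 2 without Hmgn2-/- replicate 3, and 0 without Hmgn2-/- replicate 2 or Hmgn1-/-Hmgn2-/- replicate 2 or 3. In those last 3 fits the log2 fold change of Dab2 was 1.35, 1.38 and 1.35, against 1.36 with all 6 libraries, and its adjusted p was 0.0352, 0.0275 and 0.0239. In Hmgn2-/- against Hmgn1-/- 0 of 8 were past it, and 0 were at an unadjusted p under 0.05, by edgeR and by DESeq2. Among fibroblast markers, the sum over 8 genes was 21.7, 17.9 and 22.4 CPM in WT, 7.01, 5.79 and 6.41 CPM in Hmgn1-/-, 6.41, 7.06 and 6.69 CPM in Hmgn2-/-, and 6.03, 8.98 and 7.65 CPM in Hmgn1-/-Hmgn2-/-. Every knockout library was below every WT library. Of 4 tested, 3 were past the threshold and lower in each knockout, Col1a1, Col1a2 and Thy1, the last being the most abundant by CPM. By edgeR 5.08%, 4.38% and 5.00% of all genes were past it and lower. Lum was at 0 in all libraries. Col1a2 passed the filter through WT, with 1, 1 and 2 knockout libraries over the cutoff, and was also past the threshold in each with no filter. The part of either marker list in the Pcdhg result was not tested.

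**Figure D5:**
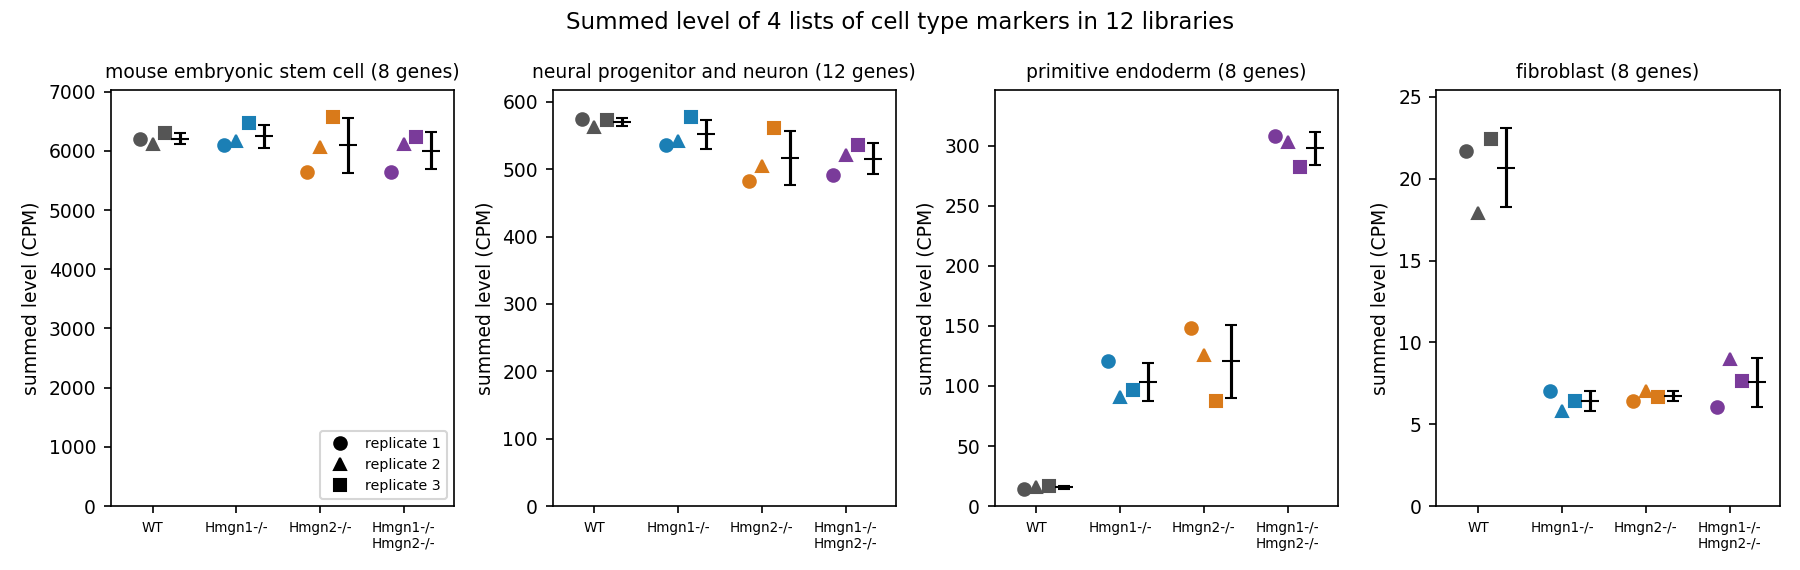
Summed CPM of the marker lists by genotype, with a marker for each replicate and a black bar for the mean with SD (n = 3). Primitive endoderm markers were at 13.9 to 16.7 CPM in WT and 282 to 308 CPM in Hmgn1-/-Hmgn2-/-, and fibroblast markers were at 17.9 to 22.4 CPM in WT and 5.79 to 8.98 CPM in the knockouts.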

How the data were processed

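The authors deposited raw counts per gene, from reads aligned to mm10 with STAR, for 12 libraries. CPM used the library totals. Each of 6 comparisons was fitted in edgeR 4.0.16 (R 4.3.3) over all genes passing filterByExpr (minimum count 10), with TMM factors, quasi-likelihood tests and Benjamini-Hochberg adjustment over all genes tested. The steps were tested on data simulated from the Hmgn1-/- and WT libraries, with changes put only into genes above a minimum mean count. That test does not cover members at low counts. The SE was derived from the log2 fold change and its F statistic. Alternatives were DESeq2 1.42.0, RLE factors, no filter, all libraries in a single fit, a replicate block and leaving out each library. Libraries with the same number were most alike across 12557 genes in every pair of genotypes (r 0.0673 to 0.545), and the labels give the number alone. The numbers were taken to pair libraries where every r was over 0.1, in all comparisons but Hmgn2-/- against WT and Hmgn1-/-Hmgn2-/- against Hmgn1-/-. The main fits did not use this pairing, and their SEs and adjusted p are unpaired. The replicate block was run as an alternative. Lengths and positions came from GENCODE M21 on GRCm38. Named genes were the targeted genes, members at an adjusted p under 0.05, the 5 most abundant of each cluster, C-type members and, of each list, up to 5 genes past the threshold or the most abundant. Members and lists were chosen with earlier results of these data known. No sequence is shown.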

Additional observations from a re-analysis of the deposited data

How the results depend on the processing

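With a threshold of an adjusted p under 0.05 and no fold limit, the number of clustered protocadherins past it against WT was 5 in Hmgn1-/-, 3 in Hmgn2-/- and 5 in Hmgn1-/-Hmgn2-/-, in place of 1, 0 and 0. Leaving out a library gave 2 to 6, 1 to 5 and 2 to 5 under that threshold, and DESeq2 gave 4, 2 and 3. With RLE factors it was again 1, 0 and 0. With no filter on low counts it was 2 in Hmgn1-/- and 1 in Hmgn2-/-. With DESeq2 it was 0 in Hmgn1-/- and 1 in Hmgn2-/-. With all 12 libraries in a single fit it was 2 in Hmgn2-/-. With a replicate block it was 2 in Hmgn1-/- and 1 in Hmgn1-/-Hmgn2-/-, and the log2 fold change of Pcdhga1 in Hmgn1-/-Hmgn2-/- was 0.00 with the opposite sign. The block put no other clustered protocadherin on the other side of the threshold. Under an adjusted p of 0.05 alone it added Pcdhga4 in Hmgn1-/- (0.0140 in place of 0.0505), Pcdhgb2 in Hmgn2-/- (0.0405 in place of 0.0585) and Pcdhga7 in Hmgn1-/-Hmgn2-/- (0.0234 in place of 0.0603), and it took out Pcdhga11 in Hmgn2-/- (0.0529 in place of 0.0498). Pcdhga4 and Pcdhga7 were named after their values were seen. Leaving out a library gave 0 to 1 in each comparison with WT. Comparisons between knockouts gave 0 under all of these settings. With 1 library left out at a time, log2 fold changes against WT were -0.09 to 0.17 for Pcdhga1 in Hmgn1-/-Hmgn2-/-, -0.11 to 0.19 for Pcdhgc3 in Hmgn2-/- and -0.40 to 0.04 for Pcdhgc5 in Hmgn1-/-. Of 297 values for 27 log2 fold changes of named members, 275 kept their direction and side of the threshold, 6 were no longer past it, 9 came past it and 7 changed sign. The 6 were all Pcdhga3 in Hmgn1-/-, at log2 fold changes of 1.35 to 1.72, where the adjusted p no longer passed. Without Pcdhac2 the Pcdha sum was 0.0824 CPM in WT, 0.0461 in Hmgn1-/-, 0.179 in Hmgn2-/- and 0.0744 in Hmgn1-/-Hmgn2-/-. Without Pcdhb17 the Pcdhb sum was 0.550, 0.612, 0.592 and 0.691 CPM in the same order, and with Pcdhb17 but without replicate 2 it was 0.847 CPM in Hmgn1-/-Hmgn2-/-. Without Pcdhgc3 the Pcdhg sum was 20.5 CPM in WT, 31.4 in Hmgn1-/-, 28.9 in Hmgn2-/- and 28.7 in Hmgn1-/-Hmgn2-/-. These sums are smaller because they hold fewer genes, and for the other differences the cause was not tested. Low counts limit Pcdha, Pcdhb and the less abundant Pcdhg members.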
